A study of Mus musculus with 4 samples.

Results

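The genes described here encode the NF-κB transcription factors and their inhibitor and feedback proteins, as seen in a map of ATF4 binding in mouse regulatory T cells. They were chosen by name, with earlier results of these data known, as 10 genes in 2 groups of 5. The subunit genes were Nfkb1, Nfkb2, Rel, Rela and Relb, and the inhibitor and feedback genes were Nfkbia, Nfkbib, Nfkbie, Nfkbiz and Tnfaip3. All peaks that the authors had assigned to these symbols were taken, which gave 13 of the 4544 peaks of the list. They lay at 6 of the 10 genes, out of 3634 genes with an assigned peak in all.

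The peaks came from chromatin immunoprecipitation and sequencing (ChIP-seq) with an ATF4 antibody. The labels give 2 ATF4 immunoprecipitates and 2 inputs, all from CD4+CD25+ cells of the spleen, and lymph nodes are named beside spleen in the design text. No genotype, strain, age or treatment is given in the sources used here, and CD4+CD25+ enrichment does not select on Foxp3. The deposited result is 1 peak list for the whole series, on build mm10, so no value below has a replicate error or a test, depth is unknown, and genes are not replicates. Foxp3 and Il2ra, which mark the labelled cell type, had 3 and 2 assigned peaks, but a peak is not a measure of expression.

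NF-κB proteins bind DNA as dimers of the Rel family. In resting cells, IκB proteins hold the dimers inactive. Receptor signals activate IκB kinase, which marks IκB for destruction and frees the dimers. The dimers then switch on the genes of their own inhibitors, which closes a feedback loop. In T cells the pathway is driven by the antigen receptor, by costimulators and by TNF family receptors, and Rel is known for its part in regulatory T cell development. ATF4 is a basic leucine zipper factor of the stress response that binds sites related to the cyclic AMP response element (CRE).

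Promoter DNA is printed here for Rel and Nfkb2, the subunit genes with the strongest assigned peaks, for Nfkbia, the inhibitor gene with the strongest, and for Tnfaip3, whose promoter like that of Rel held a CRE core, so that the letters can be read against the peaks. Each line holds the 250 bases before a RefSeq start site on GRCm38.p6, 5′ to 3′ along the gene's strand. Rel is at chr11:23770970-23771219 (minus strand), Nfkb2 at chr19:46304487-46304736 (plus strand), Nfkbia at chr12:55492648-55492897 (minus strand) and Tnfaip3 at chr10:19015411-19015660 (minus strand). Capitals mark every match to the CRE core TGACGT, the AP-1 motif TGANTCA or the κB consensus. Peak limits are not marked, and only Nfkb2 had its peak summit within the printed bases.
Rel: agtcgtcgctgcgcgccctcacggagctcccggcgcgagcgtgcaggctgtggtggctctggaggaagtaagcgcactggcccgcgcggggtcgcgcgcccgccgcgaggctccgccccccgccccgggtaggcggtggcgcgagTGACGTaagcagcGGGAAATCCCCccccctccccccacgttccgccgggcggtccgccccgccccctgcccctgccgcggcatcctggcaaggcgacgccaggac
Nfkb2: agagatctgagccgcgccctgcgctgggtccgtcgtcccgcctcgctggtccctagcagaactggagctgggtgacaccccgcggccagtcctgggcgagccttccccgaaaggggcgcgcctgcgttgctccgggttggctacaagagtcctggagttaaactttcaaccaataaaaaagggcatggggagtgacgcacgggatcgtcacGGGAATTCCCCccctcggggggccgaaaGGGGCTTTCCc
Nfkbia: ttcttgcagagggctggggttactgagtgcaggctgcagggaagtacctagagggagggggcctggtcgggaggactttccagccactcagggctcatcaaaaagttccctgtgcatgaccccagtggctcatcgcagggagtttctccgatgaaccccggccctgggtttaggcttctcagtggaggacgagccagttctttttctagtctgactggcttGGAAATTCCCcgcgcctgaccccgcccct
Tnfaip3: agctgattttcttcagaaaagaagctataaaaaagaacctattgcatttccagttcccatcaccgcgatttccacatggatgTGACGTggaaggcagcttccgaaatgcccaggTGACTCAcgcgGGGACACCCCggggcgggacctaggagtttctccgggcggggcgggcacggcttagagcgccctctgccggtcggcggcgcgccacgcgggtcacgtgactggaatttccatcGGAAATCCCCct

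RefSeq promoter windows of 300 bases, 250 before and 50 after the start site, were matched for 7 of the 10 members. In 5 of these genes a window overlapped a peak of the gene's own. The overlap was all 300 bases at Rel and Rela, 196 at Nfkbia, 126 at Nfkb2 and 123 at Tnfaip3. Rel had the CRE core 105 bases before its start site, inside its peak, and a κB consensus match, GGGAAATCCC, 92 bases before it, also inside the peak. That peak covered the whole window, so any match there lay inside it, and its summit lay 251 bp before the start site. Tnfaip3 had the CRE core 168 bases before its start site, where no listed peak lay, and an AP-1 match, TGACTCA, 136 bases before it and a κB match, GGGACACCCC, 125 bases before it, both also outside the peak. Its other κB match, GGAAATCCCC, 12 bases before the start site, lay under the peak. Nfkbia had no CRE core or AP-1 match and 1 κB match, GGAAATTCCC, 29 bases before its start site and under the peak. At the Nfkb2 start site shown, the κB matches GGGAATTCCC and GGGGCTTTCC lay 39 and 11 bases before the start, and no listed peak covered them. At a later Nfkb2 start site, the κB matches GGAATGTCCC, 236 bases before it, and GGGACTTTCC, 10 bases after it, and the AP-1 match TGAATCA, 210 bases before it, all lay under a listed peak, which was assigned to 4833438C02Rik. The window of Rela, around a start site at 5637541, had no match to these motifs. The Rela peak was assigned to another start site, at 5637442, and its summit, at 5637736, lay outside the window. Nfkbib had no match in its window either. Nfkbie, with no assigned peak, had the AP-1 match TGAGTCA, 156 bases before its start site, and the κB match GGGGGATTCC, 106 bases before it.

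Motifs were searched as exact letters on both strands, and a match is a description of the letters only. Any overlap of a window with a peak counted, so a match could lie in bases outside the peak. The CRE core stood in 16.0% of the 2294 windows that overlapped a listed peak and in 6.87% of the 30557 that did not, or 7.51% of all 32851. Full CRE sites, TGACGTCA, stood in 4.80%, 1.56% and 1.79% of the same sets, and each of them also counts as a CRE core. The AP-1 motif went the other way, with 4.62% of windows overlapping a peak, 8.05% of those without and 7.81% of all. The κB consensus stood in 11.9%, 8.20% and 8.46% of them. TGATGNAA, the core of the composite C/EBP-ATF site known from ATF4 target genes, stood in 3.27%, 4.02% and 3.97%. Among the members, its single match was in a second Tnfaip3 window with no peak. A looser κB pattern of 3 G, 5 free bases and 2 C stood in 71.2% of windows overlapping a peak, 49.3% of those without and 50.8% of all. The windows overlapping a peak also had a higher median GC content, at 64.0% against 52.0% in those without a peak. The part of base composition in these shares was not tested. The windows that a peak of the gene's own overlapped had 75.0% GC at Rel, 71.3% at Rela, 65.7% at Nfkb2, 61.0% at Nfkbia and 56.7% at Tnfaip3.

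Both groups of genes had peaks at the same count of members. Promoter peaks were assigned to 3 of 5 subunit genes and to 3 of 5 inhibitor and feedback genes, against 11.3% of all 21887 protein-coding genes, a background that includes genes silent in T cells. With peaks of any class the members' counts were the same, and the background was 12.9%. With promoter peaks at or above the median fold enrichment alone, 2 subunit genes and 3 inhibitor and feedback genes were left, against 5.47% of protein-coding genes. At a −log10 q of at least 3 both groups kept 3 genes, against a background of 9.51%, as they did within 1 kb of the start site, against 11.0%. The genes differed in how many peaks were assigned to them. The subunit genes had 3 assigned peaks, 1 each at Nfkb2, Rel and Rela. The inhibitor and feedback genes had 10, with 3 at Nfkbia, 5 at Nfkbiz and 2 at Tnfaip3.

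At least 2 assigned peaks were found at 0 of 5 subunit genes and 3 of 5 inhibitor and feedback genes, against 2.14% of protein-coding genes. At least 3 were found at 0 and 2 of them, against 0.649% of protein-coding genes. Among the 2824 protein-coding genes with any assigned peak, 16.6% had at least 2, 5.03% at least 3 and 0.850% at least 5, as Nfkbiz did. These counts follow the authors' assignment, which gave 2 peaks inside the spans of Nfkb1 and Nfkb2 to long noncoding RNA genes. Peaks per gene were not counted over all genes under another assignment. By overlap with the gene's span, 2 peaks lay over Nfkb2, so the 0 of 5 subunit genes holds for the authors' assignment only. With 5 genes in a group and no test, the difference between the groups is a description of these genes.

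**Figure D1:**
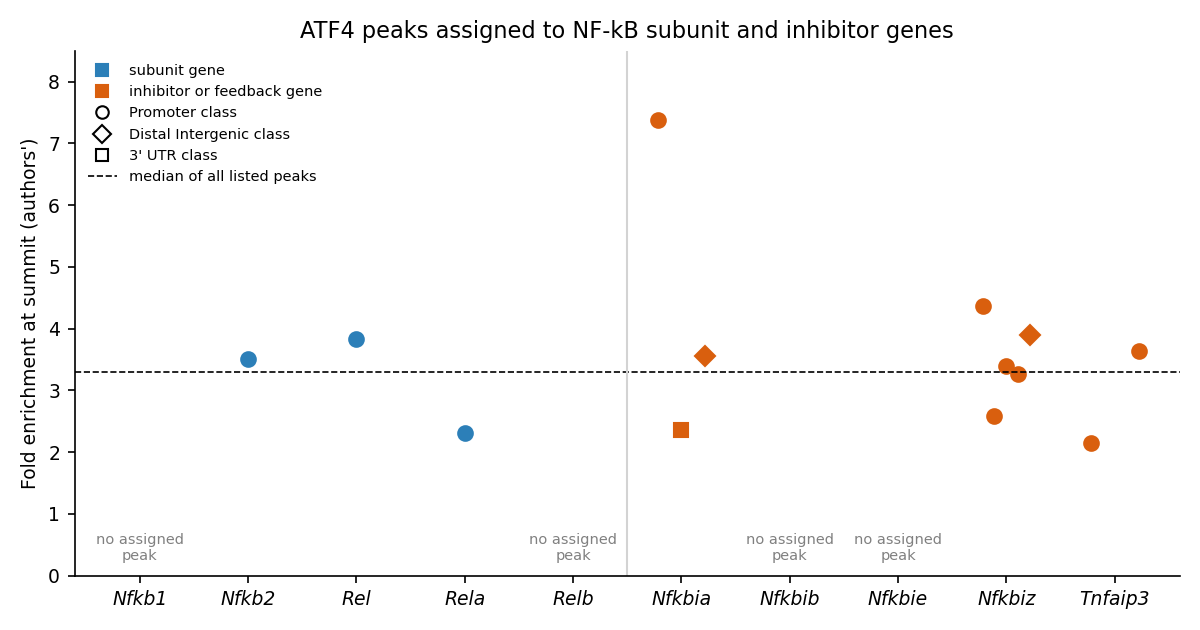
Fold enrichment at the summit (vertical axis, the authors' value) of each of the 13 assigned peaks, by gene, with subunit genes on the left and inhibitor and feedback genes on the right. Symbols give the annotation class and the dashed line the median of the list, 3.30. Nfkbia, at 7.38, stands above all other members, and 4 genes have no assigned peak.

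Fold enrichment is the height of a peak over the peak caller's local background, and −log10 q is its significance after correction, with larger values for smaller q. Over the list, the median fold enrichment was 3.30 (range 1.17 to 43.8) and the median −log10 q 5.71. By each gene's strongest peak, the subunit genes had 2.31, 3.51 and 3.83, and the inhibitor and feedback genes 3.64, 4.37 and 7.38. The groups overlapped, since Rel at 3.83 stood above Tnfaip3 at 3.64. Their medians were 3.51 and 4.37, against 3.36 over all protein-coding genes with an assigned peak. The 4.37 is the value of Nfkbiz, whose product works with NF-κB on some target genes and is not a plain inhibitor. Taken over every peak rather than the strongest per gene, the medians were 3.51 over 3 peaks and 3.47 over 10, so the order depends on which peaks are counted.

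Of the subunits, Rel had the strongest peak. Rel encodes c-Rel, a subunit with a transactivation domain that is abundant in lymphocytes. Its peak spanned 864 bp over the start site (chromosome 11, 23770717 to 23771580), with a fold enrichment of 3.83 and a −log10 q of 13.2. The summit lay 251 bp before the start site. The peak ranked 1434 of 4544 by fold enrichment and 222 by width, so it stood higher by width than by height.

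Nfkb2 encodes a precursor that is cut to a DNA-binding subunit of the alternative pathway. Its assigned peak lay upstream of 1 of its start sites, at 46304737. The gene's span begins at 46300994, so the peak lay inside the span. The peak was at chromosome 19, 46304258 to 46304612, and ended 125 bp before that start site. Its fold enrichment was 3.51 and its −log10 q 16.2. A second peak, at 46305311 to 46305725 with a fold enrichment of 3.25 and a −log10 q of 10.1, lay inside the span of Nfkb2 and was assigned to the long noncoding RNA gene 4833438C02Rik. It also covered 281 bases of the promoter window of another Nfkb2 start site, so 2 peaks lay over Nfkb2 where the assignment gave 1.

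Rela, which encodes the main transactivating subunit of the canonical pathway, had the weakest of the members' strongest peaks. It covered the start site (chromosome 19, 5637237 to 5637929) with a fold enrichment of 2.31 and a −log10 q of 3.29. By fold enrichment it ranked 4122 of 4544, near the lower end of the list, while its width of 693 bp ranked 327.

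No peak was assigned to Nfkb1 or Relb. Nfkb1 encodes the precursor of a DNA-binding subunit of the canonical pathway, and Relb encodes the transactivating partner of the Nfkb2 product. A strong peak lay inside the span of Nfkb1 all the same. This peak, at chromosome 3, 135607151 to 135607386, had a fold enrichment of 7.62 and a −log10 q of 22.7, and ranked 161 of 4544 by fold enrichment. It stood 22.5 kb from the low-coordinate end of the 107 kb gene and 84.6 kb from the other end, and was assigned as a promoter peak to the long noncoding RNA gene Gm46827. It was higher in fold enrichment than any of the 13 assigned peaks, and whether it acts on Nfkb1 was not tested. Relb had no peak in its span. The nearest were at the start sites of Gemin7 and Clptm1, at 2.98 and 3.60, at gaps of 32.6 and 35.6 kb.

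Among the inhibitors, Nfkbia had the strongest assigned peak. It encodes IκBα, the inhibitor that NF-κB itself induces and that ends the response. The peak lay at chromosome 12, 55491796 to 55492793, over the start site. Its fold enrichment was 7.38 and its −log10 q 65.0, and it ranked 170 of 4544 by fold enrichment and 141 of 3375 among promoter peaks. With 998 bp it was also among the broadest, at rank 157, against a median width of 261 bp. By strongest peak, 105 protein-coding genes stood at or above Nfkbia. The summit lay 99 bp after the start site.

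Nfkbia had further peaks at the other end of the gene. A 3′ UTR peak at 55489265 to 55489493 had a fold enrichment of 2.35 and a −log10 q of 1.85, the lowest among the members. A Distal Intergenic peak at 55488318 to 55489012 began 397 bp past the transcript end, with a fold enrichment of 3.55 and a −log10 q of 8.99. The promoter peak was therefore higher than both by fold enrichment and by −log10 q.

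Nfkbiz encodes IκBζ, a nuclear IκB protein that works with NF-κB on a subset of target genes and is itself induced by it. It had 5 peaks, the most of any member. The strongest covered the start site of the transcript NM_001159394.1 (chromosome 16, 55821944 to 55822405), with a fold enrichment of 4.37 and a −log10 q of 23.2. Inside the gene, peaks that began 655 and 1657 bp after that start site had fold enrichments of 3.40 and 3.26. A weak peak of 2.59, with a −log10 q of 2.46, lay 6 bp after the start site of a longer transcript model, XM_030249339.1. The fifth, a Distal Intergenic peak of 3.90 at 55809847 to 55810523, lay 854 bp past the transcript end. Its rank of 1322 by fold enrichment was higher than its rank of 2789 by −log10 q.

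Tnfaip3 encodes A20, a ubiquitin-editing enzyme that shuts off signals from TNF and Toll-like receptors. Its main peak covered the start site of NM_009397.3 (chromosome 10, 19015140 to 19015483), with a fold enrichment of 3.64 and a −log10 q of 22.9. It ranked 1701 of 4544 by fold enrichment but 506 by −log10 q. A second peak at 19014497 to 19014705 covered the start site of another transcript model and reached 2.15, the lowest fold enrichment among the 13 peaks.

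Nfkbib, which encodes IκBβ, and Nfkbie, which encodes IκBε, had no assigned peak. Near Nfkbib the closest listed peak was at the lncRNA gene Gm19897, at a gap of 14.8 kb and a fold enrichment of 2.05. Rinl, 22.2 kb from Nfkbib, had 4.94 over its start site. Past the end of Nfkbie, at a gap of 546 bp, lay a start-site peak of Slc35b2, a nucleotide sugar transporter gene, at 2.35. A strong peak of 7.88, with a −log10 q of 73.2, lay 9.26 kb from Nfkbie (chromosome 17, 45572427 to 45573374) and was assigned to the lncRNA gene Gm35399.

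**Figure D2:**
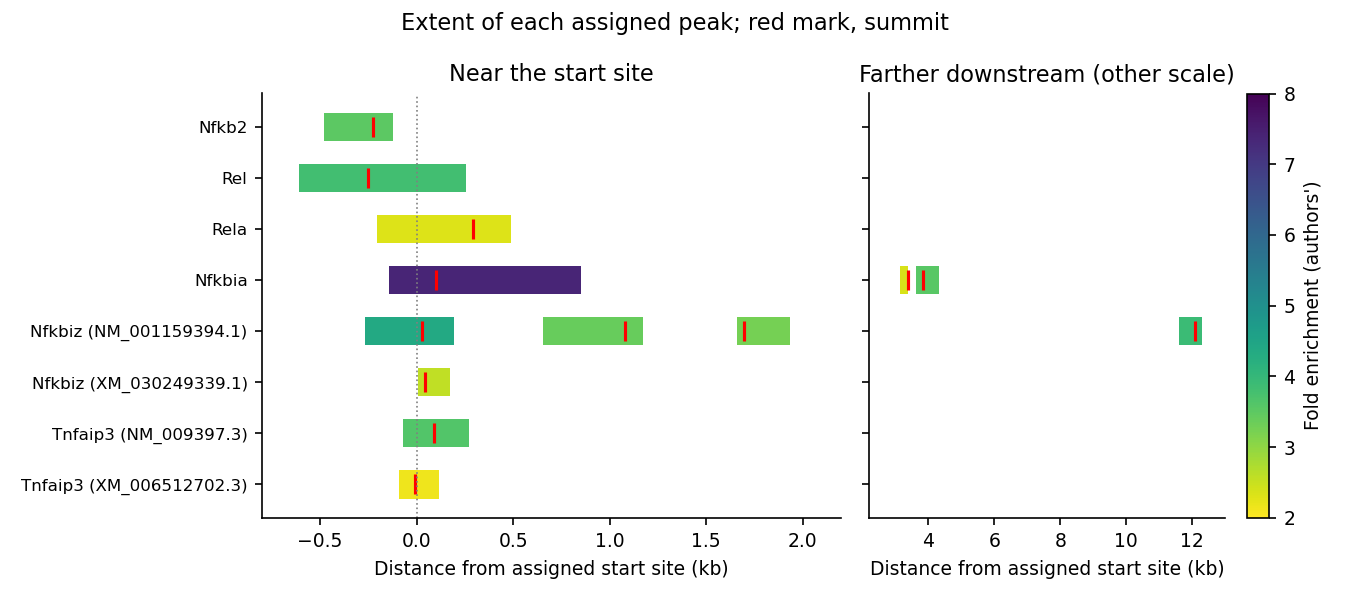
Extent of each assigned peak (bars) and its summit (red marks) by distance in kb from the start site of the assigned transcript, positive downstream, with fold enrichment as colour. Subunit genes are above inhibitor and feedback genes, and genes with peaks at different start sites have a row for each. Peaks beyond 2 kb from a start site are drawn for Nfkbia and Nfkbiz alone.

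In position, 2 of 3 subunit peaks and 4 of 10 inhibitor and feedback peaks covered the assigned start site, against 44.7% of all listed peaks. All 3 subunit peaks were of the Promoter class, as were 7 of the 10 inhibitor and feedback peaks. In the whole list, 3375 of 4544 peaks were of that class. Among the promoter peaks, that of Nfkbiz at 1657 bp was the only one beyond 1 kb. The members' peaks tended to be broad, with a median width of 693 bp over the 3 subunit peaks and 403 bp over the 10 inhibitor and feedback peaks. The median over the list was 261 bp.

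**Figure D3:**
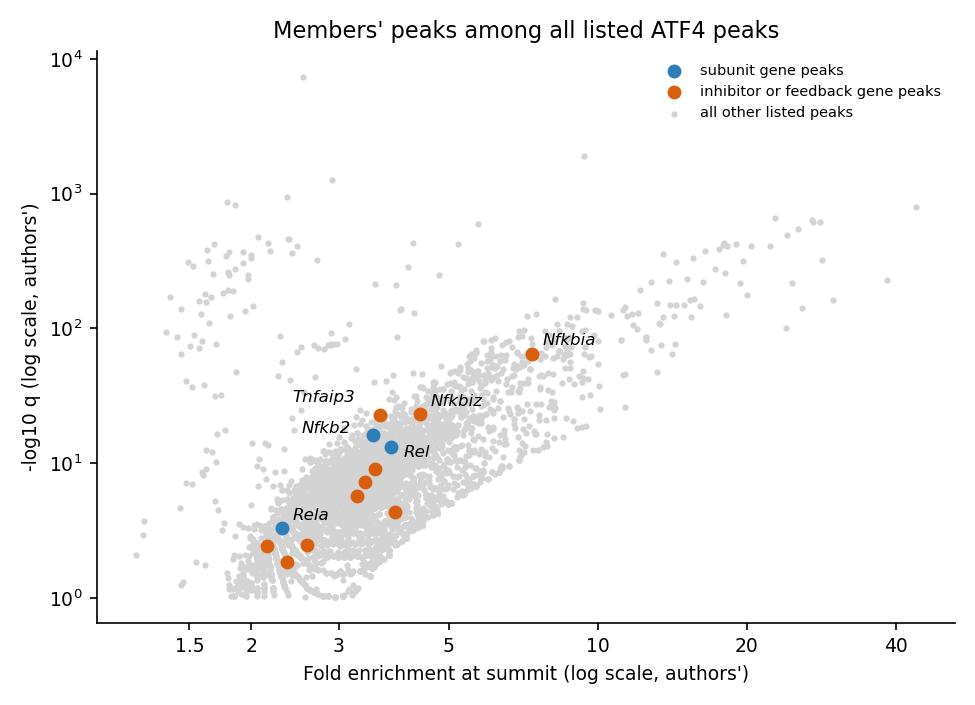
Fold enrichment (horizontal, log scale) against −log10 q (vertical, log scale) for all 4544 peaks in grey, with the members' 13 peaks coloured by group. Each gene name stands at its most significant peak, and Nfkbia, at 7.38 and 65.0, lies apart from the other members.

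Peaks within 50 kb of a member that had been assigned to other genes numbered 14 around 8 members, and 2 of these lay inside a member's span. Rel and Nfkbiz had none. No such count within 50 kb was made over all protein-coding genes, so these counts have no background. The peaks not described above had fold enrichments of 2.68 at Sipa1, 13.3 kb from Rela, and 3.63 at Gm36571, 42.2 kb from Nfkbia. Another Gm35399 peak, 10.7 kb from Nfkbie, had 2.35. Near Nfkbib, n-TKctt24 had 2.68 and Hnrnpl 2.02, at gaps of 33.5 and 44.2 kb, and Gm51814, 47.1 kb from Tnfaip3, had 2.04. Assigning instead every peak that overlapped a gene's span, or lay within 1 kb of it, gave a peak to 4 of 5 subunit genes and 4 of 5 inhibitor and feedback genes, against 15.4% of protein-coding genes. Nfkb1 and Nfkbie were the genes gained.

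Along the rest of the pathway, 92 further genes in 5 lists were looked up, with Traf1 and Birc3 in 2 of the lists. A promoter peak was assigned to 36 of them, or 39.1%, against 11.3% of all protein-coding genes. That background includes genes silent in T cells. Of 30 genes known as NF-κB targets in lymphocytes, 18 had a promoter peak. Their median fold enrichment was 4.69, against 3.25 over all protein-coding genes with a promoter peak. The lists were set with earlier results of these data known and some genes were left out, so these comparisons are descriptions. The adhesion molecule gene Icam1 had 8.47, the cyclin gene Ccnd2 7.95, the stress gene Gadd45b 7.04, the cytokine gene Tnf 6.84, the transcription factor gene Irf1 5.82 and the activation marker gene Cd69 5.56. Of these, Icam1 and Ccnd2 exceeded the 7.38 of Nfkbia. Irf4 had only a Downstream peak at 3.46.

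The signalling genes had peaks of more usual strength, and the background for their counts was the same 11.3%. Of 13 genes of IκB kinase, upstream kinases and their adaptor or regulatory partners, 5 had a promoter peak, namely Map3k8 at 3.44, Chuk at 2.96, Tab2 at 2.94, Map3k7 at 2.92 and Tank at 2.52. Chuk encodes a catalytic subunit of IκB kinase, Map3k8 and Map3k7 encode upstream kinases, and Tab2 and Tank encode adaptors. No peak was assigned to Ikbkb or Ikbkg, which encode its other subunits. Tbk1 had an Intron peak at 3.90. Between the T cell receptor and IκB kinase, 4 of 10 genes had a promoter peak. These were the costimulator gene Cd28 at 4.67, the kinase gene Prkcq at 3.97, the adaptor gene Lcp2 at 3.12 and the paracaspase gene Malt1 at 3.10. No peak was assigned to the adaptor gene Bcl10.

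Genes of TNF and Toll-like receptor signalling, with receptors, kinases and ubiquitin enzymes beside adaptors, had promoter peaks at 6 of 21. The background was again 11.3% of protein-coding genes. The inhibitor of apoptosis gene Birc3 had 4.35, the TNF receptor gene Tnfrsf1b 4.02, the ubiquitin ligase gene Traf6 3.40, the kinase gene Irak1 3.13, Traf1 2.39 and Birc2 2.25. Traf3 had only an Exon peak at 2.56. Other IκB family and feedback genes had them at 5 of 20, namely the ISG15 protease gene Usp18 at 4.31, the RNase gene Zc3h12a at 3.87, the deubiquitinase genes Cyld at 3.28 and Otud7b at 2.74, and Tax1bp1, which encodes an A20 partner, at 2.48. No peak was assigned to the nuclear IκB genes Bcl3 and Nfkbid. These 4 lists had no promoter peak at or above a fold enrichment of 5, while 8 target genes did, a contrast that was not tested. The share of all protein-coding genes with a promoter peak at that mark is not given here, so these counts have no background.

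**Figure D4:**
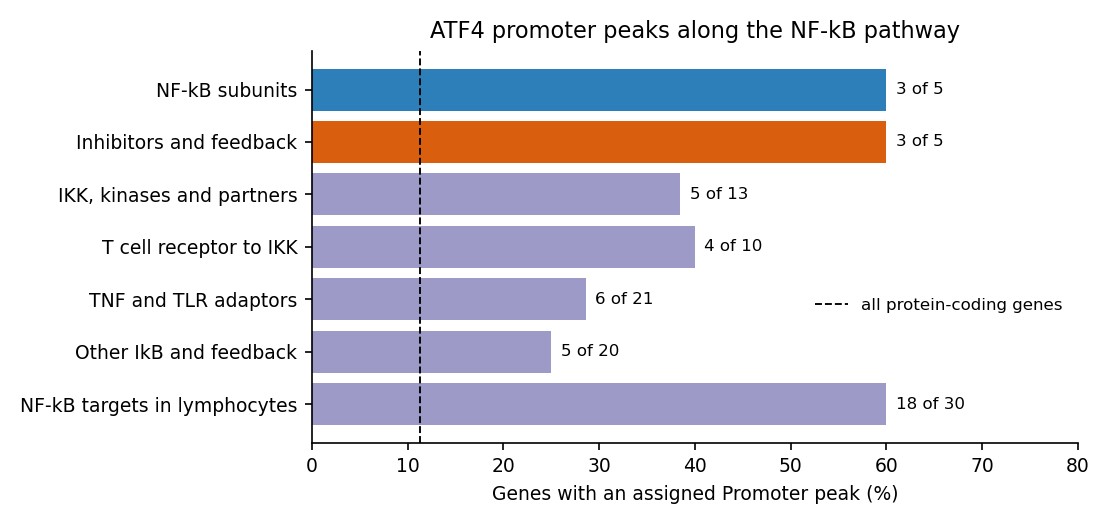
Share of genes with an assigned promoter peak (horizontal axis, percent) for the members and for 5 lists of other pathway genes, with counts beside the bars. The dashed line marks the 11.3% of all protein-coding genes. Both member groups and the target list stand at 60%, and the signalling and feedback lists lie between 25% and 40%.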

How the data were processed

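ATF4 ChIP-seq was done on 2 immunoprecipitates and 2 inputs. Trim Galore, Bowtie2, MACS2 and deepTools are named with build mm10 in the submitters' processing notes, without versions. The authors' deposited list holds, per peak, a fold enrichment, −log10 p, −log10 q, score, annotation class and assigned gene in the layout of ChIPseeker. The pooling of replicates and the use of inputs are not given in those notes or in the labels. Peaks were therefore compared within the list alone, by fold enrichment, −log10 q and width.

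Starts were raised by 1, after which the deposited distance to the start site was recovered for 4544 of 4544 peaks. Members were found by the gene symbol in field 17 of the peak annotation. Gene spans and promoter sequences are from RefSeq tables of GRCm38.p6. Counts and medians are descriptions, with no test. The members, the pathway lists and the choice of named genes were set with earlier results of these data known, and the κB consensus motif was added after the motif matches had been seen. By that rule, all members with their peaks, the 6 strongest promoter peaks of each pathway list and the list genes with only other peaks are named, as are genes with peaks within 50 kb of a member. Genes without a peak that are named besides, such as Bcl10, were chosen after their values were seen. Some genes of the pathway lists are not reported here and were left out of the counts. The motif search and the overlap of peaks with genes were tested on simulated data. Python 3.11.15, numpy 2.4.6, pandas 2.3.3 and matplotlib 3.10.9 were used.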

Additional observations from a re-analysis of the deposited data

How the results depend on the processing

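Alternatives covered the q threshold, the fold enrichment threshold, the promoter definition and the assignment of peaks to genes. With peaks at or above the median fold enrichment alone, 2 of 5 subunit genes and 3 of 5 inhibitor and feedback genes had a promoter peak, against 5.47% of protein-coding genes, and the pathway count fell to 21 genes, against 36 with all peaks. In that setting 4 of the 5 pathway lists moved by more than 1.5 times, and the target list did not. Counting peaks over or within 1 kb of a gene's span, an alternative added for the medians after the data were seen, gave medians of the strongest peak of 3.67 for subunit genes and 4.01 for inhibitor and feedback genes. At a −log10 q of at least 3, both member groups had 3 genes with a promoter peak, as they did with promoters limited to 1 kb.

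No paired analysis was possible because the list gives 1 set of peaks for the whole series and no values per sample. For the same reason leaving out a replicate was not run, and the depth of the samples, which sets how weak a peak can be listed, is unknown.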

Other observations

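Peaks at both ends of a gene were noticed at Nfkbia and Nfkbiz, and the count below was made after that. Of 2247 protein-coding genes with a promoter peak and an assigned transcript of at least 3 kb, 125, or 5.56%, also had a listed peak within 1 kb of the transcript's other end. Nfkbia had 2 such peaks and Nfkbiz 1, while Nfkb2, Rel, Rela and Tnfaip3 had 0.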
